A study of Homo sapiens with 18 samples.

Results

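The transcripts of 9 enzymes of the tricarboxylic acid (TCA) cycle were followed in MV4-11 and THP1 cells, which are human acute myeloid leukemia (AML) cell lines with a rearranged KMT2A gene, before and during inhibition of respiratory complex I. The 9 genes were CS, IDH2, IDH3A, IDH3B, IDH3G, OGDH, SUCLG1, SUCLA2 and FH, chosen by name among the 45372 gene symbols of the expression table, with succinate dehydrogenase left out because it also belongs to the respiratory chain. Cells received the solvent DMSO, or 50 nM of the complex I inhibitor IACS-010759 (IACS) for 8 h or for 24 h, and RNA of 3 replicates of each of the 6 groups was sequenced, which gave 18 libraries. MV4-11 carries a KMT2A-AFF1 fusion and an internal tandem duplication of FLT3. The labels spell the other line THP-1. Each line stands for its genotype alone, the sources used here do not say at which time the DMSO cells were harvested, and the same DMSO libraries served as the control for 8 h and for 24 h. The study's methods call the replicates independent, and the labels give only their numbers, so p-values measure the spread between 3 such replicates of each line.

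The TCA cycle runs in the mitochondrial matrix, where it oxidizes acetyl-CoA from glucose, fatty acids and amino acids and passes the electrons to NADH and FADH2. Complex I regenerates NAD+ from that NADH, and the cycle dehydrogenases need NAD+ to turn over. The cycle also supplies carbon skeletons for aspartate and other precursors. The study's introduction sets leukemic stem cells apart from bulk leukemia cells by a frequent reliance on mitochondrial respiration.

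Expression was measured as TPM, a transcript abundance corrected for transcript length and scaled to the same total in every library, so levels of different genes can be compared within a library. All 9 transcripts were present in all 18 libraries and passed the filter of a mean of at least 1 TPM. Myeloid markers were present: LYZ, SPI1 and CD33 had medians of 4706, 114.0 and 67.6 TPM in MV4-11 and of 874, 112.8 and 27.6 TPM in THP1, while MPO was low at 5.65 and 1.93 TPM, and CD3E, MS4A1 and HBB were at or near 0. Small structural RNAs made up much of every library: RMRP, RPPH1, RN7SK and the signal recognition particle RNAs RN7SL1 and RN7SL2, 5 genes in all, took 39.6 to 60.1% of TPM, which leaves less for all other genes where their share is high. The 3rd replicates stood apart in this respect. Replicate 3 of MV4-11 at 8 h had the lowest share of these RNAs, at 39.6%, and replicate 3 of THP1 had the highest share of its group in each condition, 55.8% under DMSO and 60.1% at 24 h. Differences are therefore given on the deposited TPM and, where it matters, after median-of-ratios scaling, which divides each library by the factor that best aligns its genes with those of the other libraries. These factors ran from 0.782 to 1.25.

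The NAD-linked isocitrate dehydrogenase has 3 subunit genes in the set, and they held the largest difference between the cell lines. Its alpha subunit, encoded by IDH3A (chr15:78131498-78171945, plus strand, GRCh38), carries the catalytic site, and the beta and gamma subunits, encoded by IDH3B (chr20:2658395-2664219, minus strand) and IDH3G (chrX:153785766-153794512, minus strand), assemble with it and regulate it. The 250 bases before the RefSeq start of each of these genes (GRCh38.p14) are shown because the levels of the subunits differed so much from each other and, for IDH3B, between the lines. Capitals mark matches to a short core of the nuclear respiratory factor NRF1 (CGCANGCG) or of ETS factors (CCGGAAG), searched on both strands.
IDH3A, chr15:78149112-78149361, plus strand: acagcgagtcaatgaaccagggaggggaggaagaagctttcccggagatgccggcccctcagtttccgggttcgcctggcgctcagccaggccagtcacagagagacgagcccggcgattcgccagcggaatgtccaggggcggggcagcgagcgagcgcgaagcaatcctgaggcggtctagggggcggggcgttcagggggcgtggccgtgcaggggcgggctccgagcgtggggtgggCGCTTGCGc
IDH3B, chr20:2664217-2664466, minus strand: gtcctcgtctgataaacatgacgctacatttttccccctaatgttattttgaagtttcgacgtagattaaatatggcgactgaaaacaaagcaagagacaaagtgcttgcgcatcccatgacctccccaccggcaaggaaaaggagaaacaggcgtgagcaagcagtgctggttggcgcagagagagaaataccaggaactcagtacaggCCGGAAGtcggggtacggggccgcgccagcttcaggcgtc
IDH3G, chrX:153794376-153794625, minus strand: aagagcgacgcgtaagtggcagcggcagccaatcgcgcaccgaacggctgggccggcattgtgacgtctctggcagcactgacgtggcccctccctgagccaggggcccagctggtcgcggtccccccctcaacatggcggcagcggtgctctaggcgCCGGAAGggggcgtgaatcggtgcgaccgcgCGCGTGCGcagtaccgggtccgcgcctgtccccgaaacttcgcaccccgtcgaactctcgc

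The NRF1 core lay 9 bases before the start of IDH3A and 61 bases before that of IDH3G, on the opposite strand in each case, and the ETS core lay 40 bases before the start of IDH3B and 92 bases before that of IDH3G. Among the 8 genes with a promoter in the RefSeq table, which are all but OGDH, the 300-base windows of 3 held the NRF1 core (IDH3A, IDH3G and SUCLA2) and those of 2 held the ETS core, against 3527 and 3603 of the 35116 promoters in the table. SUCLA2 also held AAGGTCA, the core site of oestrogen-related receptors, found in 3.92% of promoters, and none of the 8 windows held TGATGCAA, a composite site of ATF4 and C/EBP factors found in 0.866%. Some transcripts of IDH3A and IDH3G in the GENCODE annotation start further upstream, so these windows lie wholly or partly within the annotated genes. These matches describe the letters only.

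In DMSO the 9 transcripts spanned a wide range of levels, and their order in the lines differed in the place of IDH3B, in that of CS and FH and in that of OGDH and IDH3G. IDH2, the NADP-linked isocitrate dehydrogenase of the mitochondrion (chr15:90083045-90102477, minus strand), was the most abundant, at 239 ± 13.5 TPM in MV4-11 and 175.7 ± 17.9 TPM in THP1 (mean ± SD, n = 3), above 97.8% and 97.2% of the genes at 1 TPM or more in the line. SUCLA2, the ADP-specific beta subunit of succinyl-CoA ligase (chr13:47745736-48037968, minus strand), was the least abundant, at 9.82 ± 0.220 and 10.4 ± 1.91 TPM, near the middle of all expressed genes. In MV4-11 under DMSO no neighbours in the order IDH2, CS, FH, IDH3B, OGDH, IDH3G, SUCLG1, IDH3A, SUCLA2 overlapped in their 3 libraries. In THP1 the order was IDH2, FH, CS, IDH3G, OGDH, IDH3B, SUCLG1, IDH3A, SUCLA2, and each of the neighbours from IDH3G to IDH3A overlapped with the next. The sum of the 9 transcripts was 687 to 719 TPM in MV4-11 and 485 to 621 TPM in THP1 under DMSO.

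**Figure D1:**
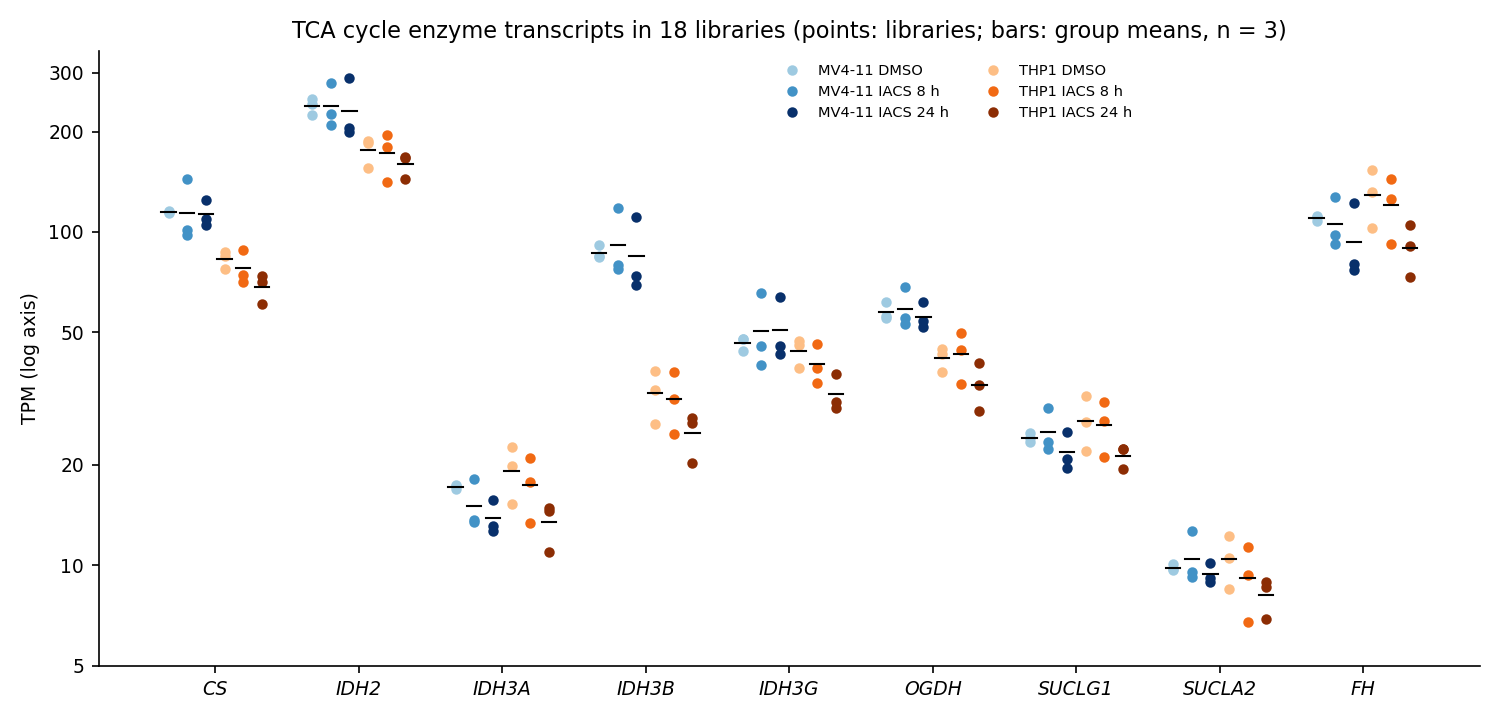
TPM of the 9 TCA cycle enzyme transcripts on a log axis, with a point for each of the 18 libraries, coloured by group, and a bar at each group mean (n = 3). The MV4-11 libraries of IDH3B, at 69.4 to 118 TPM, sit clear above all THP1 libraries, at 20.3 to 38.3 TPM. For CS, IDH2 and OGDH all MV4-11 libraries also lie above all THP1 libraries, by narrower gaps.

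IDH3B was the 1 member of 9 called lower in THP1 than in MV4-11 at baseline. It read 84.5, 84.3 and 91.3 TPM in the 3 MV4-11 DMSO libraries and 38.3, 33.7 and 26.6 TPM in the 3 THP1 DMSO libraries. The groups lay far apart, with the highest THP1 library below the lowest MV4-11 library by more than the spread of either. The difference was -1.39 on the log2(TPM + 1) scale (SE 0.204, 95% interval -1.82 to -0.96), or 0.382 of the MV4-11 level, with adjusted p = 1.43e-05 (limma, Benjamini-Hochberg over 14117 genes). A call needed an adjusted p under 0.05 and a change beyond 1.5-fold on that scale. By that rule 17.2% of all genes were lower and 19.7% were higher in THP1, so 1 lower and 0 higher members of 9 did not exceed the background. In bulk RNA, fewer cells with the transcript and less of it per cell cannot be told apart. The difference ran from -1.50 to -1.25 when any of the 6 libraries was left out, and it was -1.38 after median-of-ratios scaling.

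The partner subunits of IDH3B did not follow it. IDH3A read 17.2, 17.5 and 17.0 TPM in MV4-11 and 22.6, 19.9 and 15.2 TPM in THP1. IDH3G read 44.0, 47.8 and 47.6 TPM in MV4-11 and 47.0, 45.9 and 39.0 TPM in THP1. For both genes the lines overlapped, and the log2 differences were 0.13 (95% interval -0.23 to 0.50) and -0.08 (-0.45 to 0.29). IDH3G shares 997 bases, exons included, with SSR4 on the other strand (mean 64.8 TPM), and the library kit does not mark strand, so reads in that stretch cannot be assigned to 1 of these genes from the data alone.

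The ratio of 2 transcripts within a library does not depend on how the library was scaled, and by this measure the make-up of the isocitrate dehydrogenase transcripts separated the lines in every condition. IDH3A was 0.142 to 0.207 times IDH3B in the 9 MV4-11 libraries and 0.527 to 0.591 times IDH3B in the 9 THP1 libraries. IDH3B exceeded IDH3G in all MV4-11 libraries, with ratios of 1.52 to 1.94, and was below it in all THP1 libraries, with ratios of 0.682 to 0.865. The level of IDH3A against IDH3G was closer between the lines, at 0.247 to 0.391 in MV4-11 and 0.371 to 0.481 in THP1, and these ranges over all conditions overlapped. Within a condition the lines only met in DMSO, at 0.391. They did not overlap at 8 h (0.277 to 0.343 in MV4-11, 0.380 to 0.454 in THP1) or at 24 h (0.247 to 0.296 and 0.371 to 0.479).

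**Figure D2:**
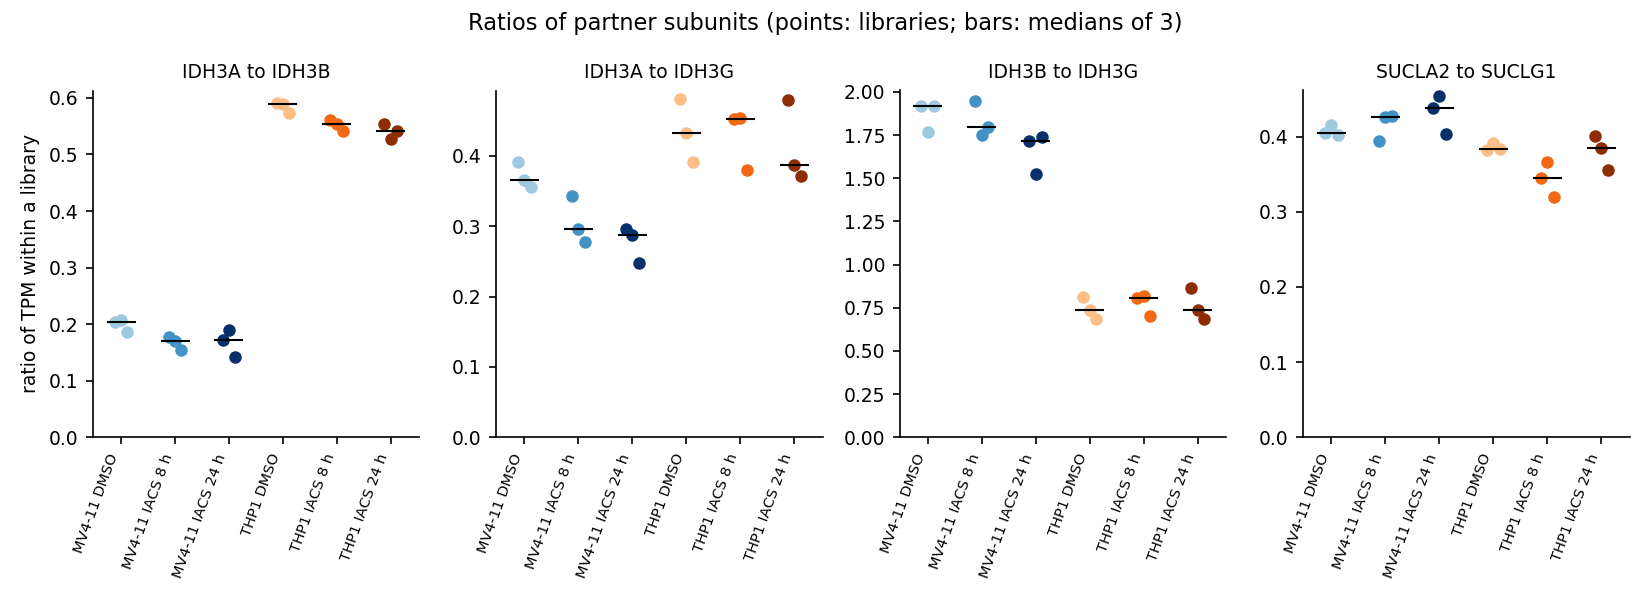
Ratios of TPM between partner subunits within each library, for IDH3A to IDH3B, IDH3A to IDH3G, IDH3B to IDH3G and SUCLA2 to SUCLG1, with a point per library and a bar at the median of the 3 libraries in each group. The IDH3A to IDH3B ratio stays at or below 0.207 in MV4-11 and at or above 0.527 in THP1, and it is lower in all THP1 IACS libraries than in all THP1 DMSO libraries.

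CS, IDH2 and OGDH were also lower in THP1, by a smaller step that did not reach the fold threshold. CS, citrate synthase, which opens the cycle (chr12:56271699-56300391, minus strand), read 114.7, 115.5 and 113.6 TPM in MV4-11 and 86.8, 84.6 and 77.4 TPM in THP1 under DMSO. OGDH, the first component of the 2-oxoglutarate dehydrogenase complex (chr7:44606572-44709066, plus strand), read 55.3, 61.5 and 56.0 TPM in MV4-11 and 44.6, 43.0 and 38.0 TPM in THP1. IDH2 read 225, 251 and 242 TPM in MV4-11 and 184, 188 and 155 TPM in THP1. None of these 3 genes overlapped between the lines. The log2 differences were -0.46 (SE 0.141) for CS, -0.45 (SE 0.148) for OGDH and -0.45 (SE 0.158) for IDH2, with adjusted p = 0.0105, 0.0163 and 0.0254 (limma). With IDH3B, 4 of 9 members were thus lower at an adjusted p under 0.05 without a fold threshold, against 24% of all genes, and the same 4 had all THP1 DMSO libraries below all MV4-11 DMSO libraries, against 30.9%. CS shares exons with a read-through gene on its own strand in the annotation, and its value may include such reads.

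For the enzymes of the later steps the lines overlapped. SUCLG1, the alpha subunit shared by both succinyl-CoA ligases (chr2:84423528-84460045, minus strand), read 24.9, 23.4 and 24.1 TPM in MV4-11 and 32.2, 26.9 and 22.0 TPM in THP1. FH, fumarase, which hydrates fumarate to malate (chr1:241497511-241519799, minus strand), read 111.5, 107.8 and 110.9 TPM in MV4-11 and 153.4, 131.8 and 103.0 TPM in THP1. SUCLA2 read 10.1, 9.72 and 9.67 TPM in MV4-11 and 12.3, 10.5 and 8.46 TPM in THP1. The THP1 libraries spread widely around the MV4-11 values for all 3 genes. Their log2 differences were 0.14, 0.21 and 0.06, with 95% intervals of -0.19 to 0.48, -0.21 to 0.64 and -0.29 to 0.42. No difference was detected, and one within these bounds remains possible.

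The same contrast was read at 8 h and at 24 h of IACS. IDH3B was lower in THP1 by -1.51 (SE 0.204) at 8 h and by -1.71 (SE 0.204) at 24 h, with adjusted p = 5.19e-06 and 1.02e-06 (limma). At 8 h it was again the 1 member called lower, against 25% of all genes. At 24 h the calls were IDH3B, CS (-0.71), OGDH (-0.68) and IDH3G (-0.60), 4 of 9 against 27.2% of all genes. These 3 further calls rested on the scaling: the median of all genes stood at -0.20 in that contrast on deposited TPM and at 0.01 after median-of-ratios scaling, where CS was -0.48, OGDH -0.45 and IDH3G -0.38 and IDH3B alone was called, at -1.48.

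**Figure D3:**
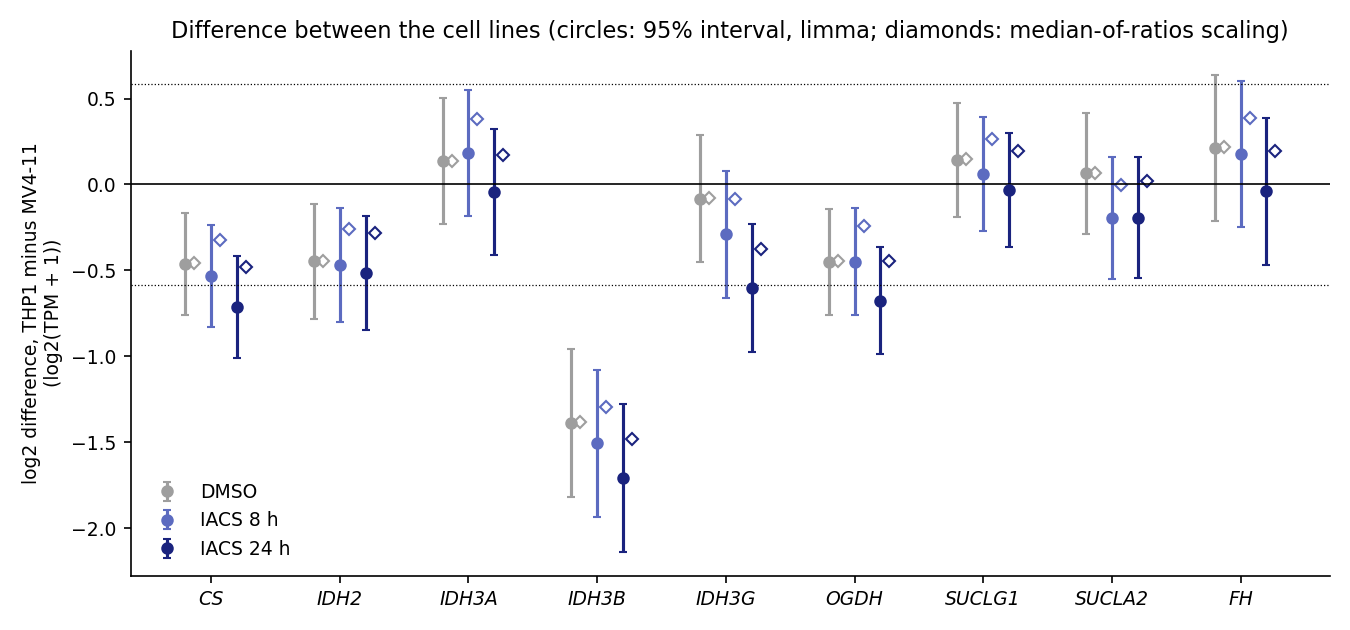
Log2 difference of THP1 minus MV4-11 on log2(TPM + 1) for each member under DMSO, 8 h and 24 h of IACS, as circles with 95% intervals from limma, with diamonds for median-of-ratios scaling and dotted lines at a 1.5-fold change in each direction. IDH3B lies beyond the lower dotted line in all 3 conditions on both scalings, and CS, OGDH and IDH3G do so at 24 h on deposited TPM only.

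In MV4-11, 8 h of IACS moved no member beyond the spread between replicates. The 9 log2 differences from DMSO ran from -0.19 (IDH3A) to 0.08 (IDH3G), with a median of 0.02 beside 0.06 for all genes. By limma 0 of 9 were called, 0 had an unadjusted p under 0.05 and 0 were called by Kruskal-Wallis and Dunn's tests, while 0.0148% of all genes were called. Replicate 3 set the spread. For CS the 8 h libraries read 97.8, 101.0 and 144.0 TPM, the third being above every DMSO library and the others below, and all 9 transcripts had their highest 8 h value in replicate 3. That library was the one with the lowest share of the 5 noncoding RNAs, and the part of this in its values was not tested. Without it, IDH3A was at -0.32 (adjusted p = 0.464, limma).

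At 24 h in MV4-11, 8 of the 9 transcripts lay below DMSO on average, with a median log2 difference of -0.07 where all genes had a median of 0.08, and none was called by limma or by Kruskal-Wallis and Dunn's tests (0.0886% of all genes by limma, a share that rests on 12 genes and that leaving out 1 library moved to between 0 and 137 genes). IDH3A, the catalytic subunit, was the lowest. It read 12.7, 13.1 and 15.8 TPM at 24 h beside 17.2, 17.5 and 17.0 TPM in DMSO, so that all 3 treated libraries lay below all 3 controls, a pattern held by 5.26% of all genes and by no other member. Its difference was -0.30 (SE 0.134, 95% interval -0.59 to -0.01), with adjusted p = 0.399 (limma). It was the 1 member with an unadjusted p under 0.05. After median-of-ratios scaling it was -0.37 (adjusted p = 0.0666), and with the 5 noncoding RNAs taken out of the total it was -0.36 (adjusted p = 0.0362), still short of the fold threshold.

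FH was next in MV4-11. It read 80.3, 76.9 and 122.4 TPM at 24 h, where the first 2 values lay well under the DMSO libraries and the third above them. The difference was -0.27 (SE 0.178, adjusted p = 0.584, limma), and it was -0.48 (adjusted p = 0.112) without replicate 3 of the 24 h group. IDH3G, at 42.9, 45.6 and 63.7 TPM, was the 1 member whose mean was above DMSO, by 0.10 (95% interval -0.30 to 0.51).

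Within MV4-11 libraries, IDH3A was lower against IDH3G under IACS than in DMSO. Its ratio to IDH3G was 0.356 to 0.391 in DMSO, 0.277 to 0.343 at 8 h and 0.247 to 0.296 at 24 h, so that no IACS library reached the DMSO range. Its ratio to IDH3B was 0.186 to 0.207 in DMSO, 0.154 to 0.176 at 8 h and 0.142 to 0.189 at 24 h, where the values at 24 h overlapped the DMSO range. Replicate 3 had the lowest of both ratios at both times, 0.154 and 0.142 for IDH3B and 0.277 and 0.247 for IDH3G. IDH3B was also lower against IDH3G at 24 h, at 1.52 to 1.74 beside 1.77 to 1.92 in DMSO, with no overlap. At 8 h that ratio was 1.75 to 1.94 and overlapped the DMSO range. Both ratios to IDH3G share its values, which may include reads of SSR4. These ratios are a description and were not tested, and the share of other gene pairs that separate in this way was not counted.

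In THP1, 8 h of IACS gave differences between -0.18 (SUCLA2) and 0.03 (OGDH), with a median of -0.10 beside -0.12 for all genes, and 0 of 9 members were called by limma or by Kruskal-Wallis and Dunn's tests (0.0144% of all genes by limma), with 0 under an unadjusted p of 0.05. On deposited TPM 83.6% of all genes lay below 0 at 8 h in THP1. Scaling by median of ratios moved the median of all genes from -0.12 to 0.01 and that of the members to 0.05, so the small deficits of 6 members changed sign.

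At 24 h in THP1 all 9 transcripts were below DMSO, with a median of -0.32 beside -0.12 for all genes, and the 3 isocitrate dehydrogenase subunits and FH lay lowest. FH read 153.4, 131.8 and 103.0 TPM in DMSO replicates 1 to 3 and 104.7, 90.8 and 73.1 TPM at 24 h. IDH3A read 22.6, 19.9 and 15.2 TPM in DMSO and 14.8, 14.5 and 11.0 TPM at 24 h. IDH3G read 47.0, 45.9 and 39.0 TPM in DMSO and 30.9, 37.6 and 29.6 TPM at 24 h. In each of these genes replicate 3 was the lowest of its group in both conditions, and each 24 h library was below the DMSO library of the same number. IDH3B read 38.3, 33.7 and 26.6 TPM in DMSO and 26.8, 27.6 and 20.3 TPM at 24 h, the same pattern.

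The test without regard to replicate numbers called 0 of 9 members in THP1 at 24 h (limma; 0.0431% of all genes). Kruskal-Wallis and Dunn's tests also called 0 members, and 23 of 13928 genes. Before adjustment 3 members had p under 0.05 (limma), all of them lower than in DMSO, where 72.8% of all genes lay below 0. The share of all genes at that unadjusted p was not counted. The differences were -0.52 for FH (SE 0.202, 95% interval -0.96 to -0.08), -0.48 for IDH3A (SE 0.199, -0.91 to -0.05), -0.42 for IDH3G (SE 0.153, -0.75 to -0.09) and -0.39 for IDH3B (SE 0.194, -0.81 to 0.04), with adjusted p = 0.539, 0.550, 0.517 and 0.592. CS, IDH3A and IDH3G had all 24 h libraries below all DMSO libraries, 3 of 9 members against 10.2% of all genes.

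Same-numbered THP1 libraries deviated together at 24 h and in DMSO, and a fit with the replicate number as a block changed these p-values. The differences stayed as they were by construction, and the adjusted p became 0.00818 for FH, 0.0130 for IDH3A, 0.0144 for IDH3G and 0.0253 for IDH3B (limma with replicate block). These 4 of 9 members were lower at an adjusted p under 0.05, against 11.1% of all genes, and the other 5 had adjusted p from 0.0541 (CS) to 0.287 (IDH2). None of the 4 reached the threshold of 1.5-fold, so by the rule for a call the block left 0 members called. All 9 members were lower at 24 h in 3 of 3 same-numbered pairs, against 42.9% of all genes.

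The same 4 transcripts stayed lowest when the general downward shift of THP1 TPM was removed. After median-of-ratios scaling the differences were -0.37 for FH, -0.34 for IDH3A, -0.27 for IDH3G and -0.24 for IDH3B, all with adjusted p under 0.05 in the fit with the block (0.0126, 0.00969, 0.0184 and 0.0158), 4 of 9 members against 7.09% of all genes. Without the block the adjusted p were 0.0715, 0.0476, 0.0649 and 0.0754 on this scaling. IDH2 was the exception among the 9, at -0.14 on deposited TPM and 0.02 after scaling, and 8 of 9 members were then lower in all 3 pairs, against 24.2% of all genes. The share of TPM in the 5 noncoding RNAs was 46.3 to 55.8% in THP1 DMSO and 51.4 to 60.1% at 24 h, with overlapping ranges. It was higher at 24 h than in DMSO in each same-numbered pair, and this difference was not tested.

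**Figure D4:**
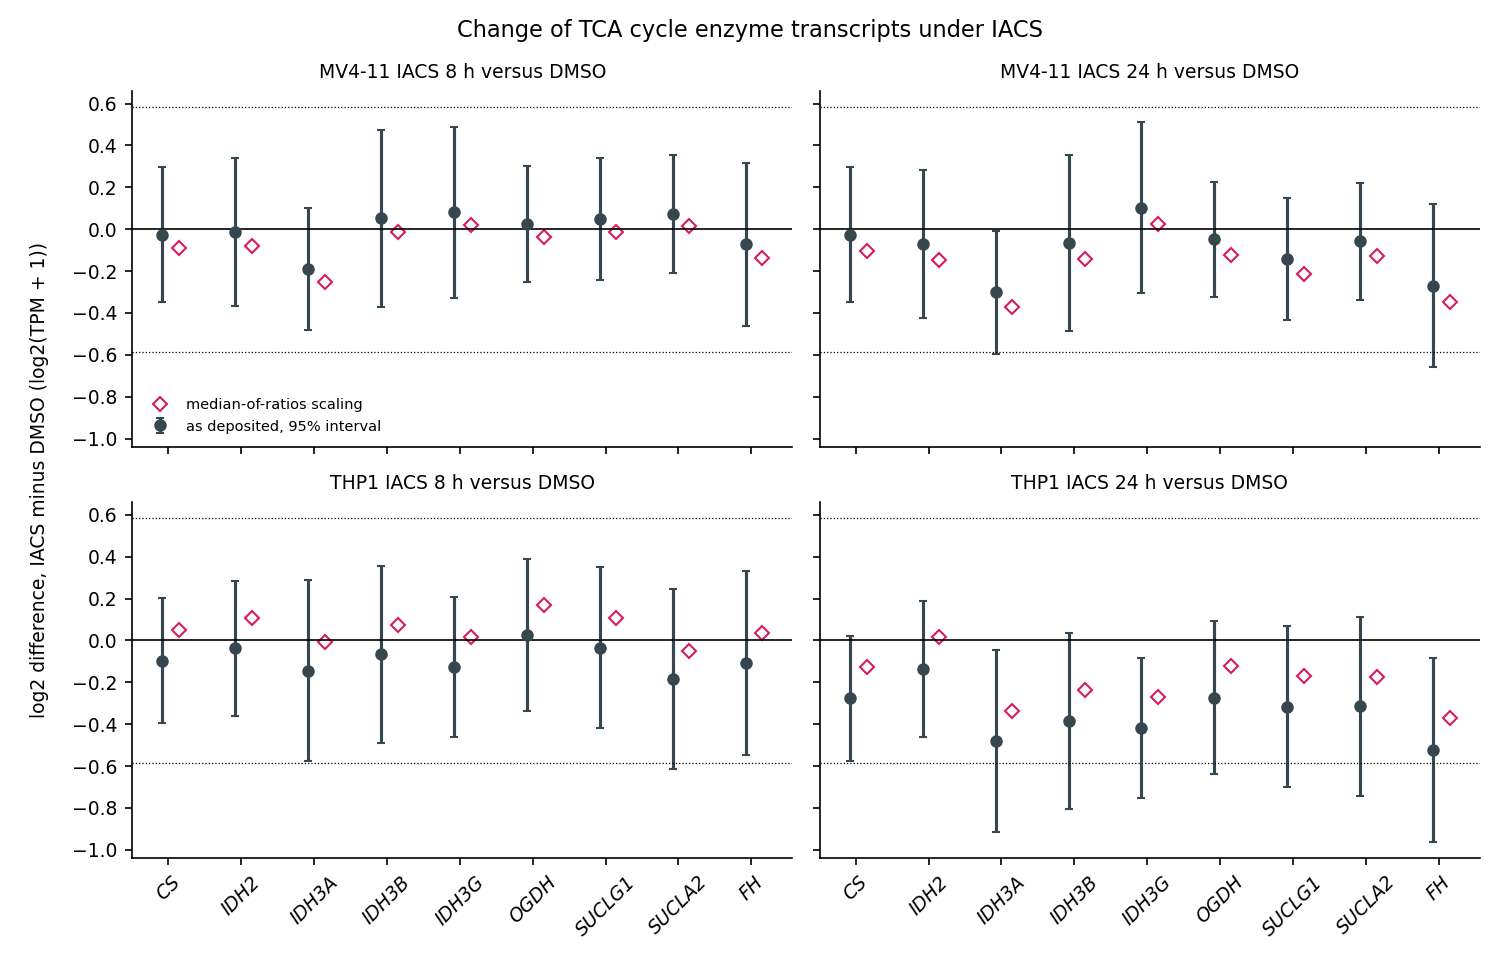
Log2 difference of IACS minus DMSO on log2(TPM + 1) for the 9 members in 4 panels, as circles with 95% intervals from limma on deposited TPM, diamonds after median-of-ratios scaling, and dotted lines at a 1.5-fold change in each direction. In THP1 at 24 h all circles lie below 0, from -0.14 (IDH2) to -0.52 (FH), and no circle in any panel passes a dotted line.

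The remaining members at 24 h in THP1 had smaller differences that the blocked fit did not call either. CS read 70.9, 73.8 and 60.7 TPM (difference -0.28), and OGDH 34.7, 40.4 and 29.1 TPM (-0.27). SUCLG1 read 22.3, 22.3 and 19.4 TPM (-0.32), and SUCLA2 8.93, 8.59 and 6.89 TPM (-0.31). IDH2 read 168, 167 and 144 TPM (-0.14), the least change of the 9. Relative to the median of all genes these differences were -0.16, -0.16, -0.20, -0.20 and -0.02, against -0.41 for FH and -0.36 for IDH3A.

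The step from 8 h to 24 h was also read directly. In THP1, from 8 h to 24 h all 9 members had lower means, with a median of -0.29 while all genes had a median of 0.01, and 7 of 9 were lower in all 3 same-numbered pairs, against 24.1% of all genes (23.8% after scaling, again with 7 members). The fit without the block called 0 members (limma; 0.00718% of all genes called, and 0 members under an unadjusted p of 0.05). With the block, FH alone had an adjusted p under 0.05, at -0.41 (adjusted p = 0.0435), against 1.63% of all genes. With the block and median-of-ratios scaling 6 of 9 members did, against 6.18%, namely IDH3A (-0.33), IDH3B (-0.31), IDH3G (-0.28), OGDH (-0.29), SUCLG1 (-0.27) and FH (-0.41), again short of the fold threshold. In MV4-11 the step from 8 h to 24 h gave 0 calls among members and 0% among all genes, with 0 members under an unadjusted p of 0.05, differences from -0.20 (FH) to 0.02 (IDH3G), and 6 of 9 members lower in all 3 same-numbered pairs, against 9.84% of all genes.

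**Figure D5:**
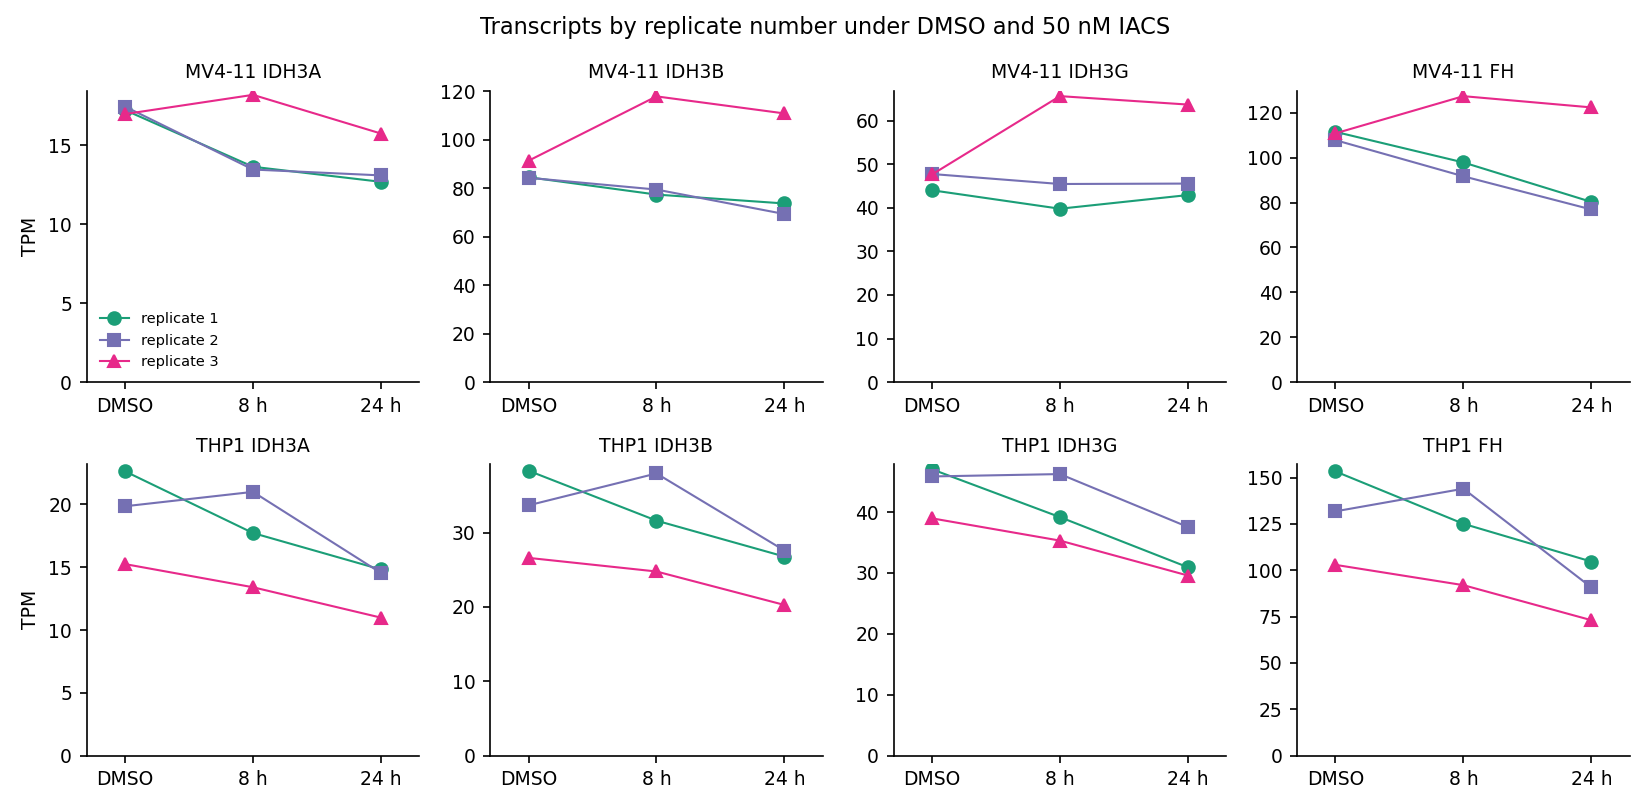
TPM of IDH3A, IDH3B, IDH3G and FH by condition in MV4-11 (upper row) and THP1 (lower row), with a line for each replicate number on an axis from 0. In THP1 all lines end below their start, while in MV4-11 replicate 3 (triangles) lies above the others at 8 h and 24 h.

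Whether the lines differed in their response was tested directly. No member was called for the difference between THP1 and MV4-11 in the 8 h response or in the 24 h response (limma, 0.00708% of all genes called in each), and 0 had an unadjusted p under 0.05. IDH3G came nearest at 24 h, with a difference of -0.52 (SE 0.250, 95% interval -1.05 to 0.00, adjusted p = 0.694), which was -0.30 after median-of-ratios scaling. For FH the lines differed by -0.25 (95% interval -0.86 to 0.35) and for IDH3A by -0.18 (-0.70 to 0.34). The decreases seen in THP1 were thus not shown to be particular to that line. Within THP1 libraries the ratio of IDH3A to IDH3G overlapped between the conditions, at 0.391 to 0.481 in DMSO, 0.380 to 0.454 at 8 h and 0.371 to 0.479 at 24 h. The ratio of IDH3A to IDH3B was 0.573 to 0.591 in DMSO, 0.541 to 0.561 at 8 h and 0.527 to 0.554 at 24 h, so that no IACS library of THP1 reached the DMSO range. Of the ratios of IDH3A to its partners, the one to IDH3G set all IACS libraries apart from all DMSO libraries in MV4-11, and the one to IDH3B in THP1. This contrast between the lines was thin. In MV4-11 the ratio to IDH3B overlapped only through replicate 2 at 24 h, at 0.189 against a lowest DMSO value of 0.186.

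Succinyl-CoA ligase exists in an ATP-forming version with SUCLA2, which uses ADP, and a GTP-forming version with SUCLG2, which uses GDP, and both contain SUCLG1. SUCLA2 was 0.394 to 0.455 times SUCLG1 in MV4-11 and 0.320 to 0.401 times in THP1. SUCLG2 was the more abundant beta subunit throughout, and SUCLA2 was 0.252 to 0.337 times SUCLG2 in MV4-11 and 0.268 to 0.317 times in THP1. In THP1 this ratio was 0.306 to 0.317 in DMSO, 0.268 to 0.297 at 8 h and 0.269 to 0.285 at 24 h, so no IACS library reached the DMSO range. In MV4-11 the values went the other way at 24 h, at 0.282 to 0.297 against 0.252 to 0.260 in DMSO, so all 24 h libraries lay above the DMSO range. At 8 h they were 0.255 to 0.337 and overlapped it. Against SUCLG1 in THP1, SUCLA2 was at 0.320 to 0.366 at 8 h, below the DMSO range of 0.382 to 0.391, and at 0.356 to 0.401 at 24 h, which overlapped it. SUCLG2 against SUCLG1 in THP1 was 1.32 to 1.41 at 24 h, above the DMSO range of 1.21 to 1.28, and 1.19 to 1.23 at 8 h, which overlapped it. These ratios were not tested, and the share of other gene pairs that separate in this way was not counted.

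Enzymes beside the 9 were read from 4 lists of 38 genes, of which 36 were tested at baseline. Of the other genes of the cycle, among them DLST, DLD, SUCLG2 and MDH2, 0 of 5 tested were called between the lines (limma; 1 had an unadjusted p under 0.05), and the lowest was DLST, the second component of the 2-oxoglutarate dehydrogenase complex, at -0.39. Of the genes of pyruvate entry 1 of 13 was higher in THP1, the inhibitory kinase PDK3 (0.86), and 3 were lower, namely pyruvate dehydrogenase phosphatase PDP1 (-1.09), the kinase PDK1 (-0.72) and pyruvate carboxylase PC (-0.76). The cytosolic enzymes included 3 of 7 that were higher in THP1, malic enzyme ME1 (3.50), malate dehydrogenase MDH1 (1.11) and aspartate aminotransferase GOT1 (0.75), and ACO1 had the least difference, at 0.00. Among 11 genes of glutamine and other carbon entry, the mitochondrial phosphoenolpyruvate carboxykinase PCK2 was higher in THP1 (1.53), and alanine aminotransferase GPT2 (-1.63), glutamate dehydrogenase GLUD1 (-0.81), the 2-oxoglutarate carrier SLC25A11 (-0.98) and D2HGDH (-0.93), which oxidizes D-2-hydroxyglutarate, were lower. Thus 5 of these 36 genes were higher and 7 lower, where 19.7% and 17.2% of all genes were.

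IACS changed none of the listed genes by the rule for a call in either line at either time (limma), and 0 had an unadjusted p under 0.05 at 8 h in THP1. In MV4-11 the largest rise was in PCK2, from 5.68 ± 0.451 TPM in DMSO to 10.4 ± 2.22 TPM at 8 h and 9.34 ± 0.337 TPM at 24 h (differences 0.75 and 0.63, adjusted p = 0.240 and 0.127, limma). D2HGDH stood at 30.5 ± 1.22, 40.7 ± 8.64 and 45.9 ± 1.07 TPM in the same groups (0.39 and 0.58, adjusted p = 0.982 and 0.137). These 2 were the only listed genes with an unadjusted p under 0.05 at 8 h in MV4-11, and ME3 (0.39) and SUCLG2 (-0.24) joined them at 24 h. In THP1 at 24 h GOT2, the mitochondrial aspartate aminotransferase, was at -0.51 (adjusted p = 0.506, limma), 1 of 2 listed genes with an unadjusted p under 0.05.

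Further extremes of the lists on deposited TPM follow, none of them called. At 8 h in MV4-11 they were SUCLG2 (-0.06) and DLST (0.12), DLAT (-0.12) and PDK1 (0.10), and ACLY (-0.22) and GOT1 (0.14). At 24 h in MV4-11 they were SUCLG2 and DLST (0.18), DLAT (-0.24) and PDK2 (0.12), and ACLY (-0.18) and IDH1 (0.02). In THP1 the lowest of the other cycle genes at 8 h was DLD (-0.12), and the highest at 24 h was DLST (-0.14), so all 5 were below 0 at 24 h, as the 9 members were. Their median at 24 h was -0.22, beside -0.32 for the members and -0.12 for all genes. The remaining THP1 extremes at 8 h were PDK2 (-0.24) and PDP2 (0.18), IDH1 (-0.22) and GOT1 (0.22), and ME3 (-0.34) and PCK2 (0.15). At 24 h they were PDHA1 (-0.33) and PDP2 (0.14), GOT1 (-0.21) and ME1 (0.17), and GOT2 opposite PCK2 (0.37).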

How the data were processed

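The authors extracted RNA with on-column DNase treatment, made TruSeq libraries that do not mark strand, trimmed paired-end NovaSeq reads and mapped them to GRCh38 in CLC Genomics Workbench; the annotation release is not given in the sources used here. The deposited values are TPM per gene symbol, with no counts. In each library about 3 in 4 low genes were whole multiples, within 0.02, of a common step of TPM times length, which did not recover counts, so read depth is unknown and limits the precision. The deposited columns were matched to samples by name, and none was left over.

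Values were tested as log2(TPM + 1) with limma 3.58.1 in R 4.3.3 (variance trend, two-sided, Benjamini-Hochberg over genes averaging 1 TPM or more), in the 9 libraries of a line for IACS and in all 18 between lines, without a replicate block. The pairing was checked from the correlation of same-numbered deviations, which came from the data and not from the labels: it was 0.146, 0.157 and 0.324 for THP1 at 24 h and DMSO, and 0.183, 0.277 and 0.357 for THP1 at 24 h and 8 h, and 0.110, 0.408 and 0.441 for MV4-11 at 24 h and 8 h (0.0895 in the first pair after median-of-ratios scaling), and at least 1 pair was under 0.1 for IACS against DMSO elsewhere. The 9 members, all lists and the motifs were chosen with earlier results of these data known. Named beside the members were the listed genes called and the extremes of each list. The script was tested on simulated data. Gene positions came from GENCODE on GRCh38, promoters from RefSeq. Some listed genes are not reported here.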

Additional observations from a re-analysis of the deposited data

How the results depend on the processing

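With a replicate block 0 members were called in every comparison of IACS with DMSO, of 24 h with 8 h and of the responses of the lines, and 1 at baseline, as without it. The baseline count of 1 became 4 with an adjusted p and no fold threshold, and the other alternatives run kept each count of called members within the lines, between the responses and at baseline. Median-of-ratios scaling turned the sign of small uncalled differences: in MV4-11 at 8 h IDH3B -0.0118, OGDH -0.0386 and SUCLG1 -0.0121, in THP1 at 8 h CS 0.0475, IDH2 0.107, IDH3B 0.0745, IDH3G 0.0145, SUCLG1 0.106 and FH 0.0363, and in THP1 at 24 h IDH2 0.0155. Leaving out 1 library at a time turned the sign of further uncalled differences. In MV4-11 at 8 h the ranges were -0.204 to 0.0735 for CS, -0.133 to 0.0714 for IDH2, -0.143 to 0.158 for IDH3B, -0.124 to 0.230 for IDH3G, -0.0876 to 0.0933 for OGDH, -0.0704 to 0.127 for SUCLG1, -0.0591 to 0.148 for SUCLA2 and -0.214 to 0.0211 for FH. In MV4-11 at 24 h they were -0.0977 to 0.0220 for CS, -0.241 to 0.0284 for IDH2, -0.274 to 0.0604 for IDH3B, -0.0691 to 0.210 for IDH3G and -0.120 to 0.00119 for OGDH. In THP1 at 8 h they were -0.134 to 0.0949 for IDH2, -0.294 to 0.0206 for IDH3A, -0.209 to 0.0890 for IDH3B, -0.0833 to 0.163 for OGDH, -0.168 to 0.110 for SUCLG1 and -0.263 to 0.0716 for FH, and at baseline -0.0523 to 0.192 for SUCLA2. Counts over all genes moved far more. At 24 h in THP1 6 genes were called, 103 after median-of-ratios scaling, 296 with the replicate block and 191 with both, and in MV4-11 12, 81, 100 and 117. At 8 h the counts were 2, 4, 9 and 4 in THP1 and 2, 4, 10 and 4 in MV4-11, and from 8 h to 24 h in THP1 1, 70, 114 and 137. Leaving out 1 library moved the MV4-11 count at 24 h from 12 to 0 (without any DMSO library or without 24 h replicate 1) and up to 102 and 137 (without replicate 3 at 24 h or at 8 h), and the THP1 count at 24 h from 6 to between 1 and 16, the highest without 24 h replicate 2. The cause was not tested.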

Other observations

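The genes most like the 9 members were sought over the 18 libraries, by Pearson's correlation with the members' mean log2(TPM + 1) after each cell line's mean was subtracted, among 14072 genes outside the lists. On deposited TPM the nearest were NUP93 (r = 0.987), a nuclear pore component, EMC4 (0.982), GRPEL1 (0.981), a mitochondrial import co-chaperone, STOML2 (0.980), a mitochondrial inner membrane protein, and HAUS7 (0.979). The median correlation of all genes was 0.523 there, since all share the scaling of a library. After median-of-ratios scaling that median was -0.04, and the nearest were HIGD1A (0.978), a mitochondrial inner membrane protein, AIMP2 (0.977), PRADC1 (0.970), NUP93 (0.970) and HSD17B10 (0.968), a mitochondrial matrix dehydrogenase. These correlations describe the libraries and carry no test.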
